A study of Mus musculus with 12 samples.

Results

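The genes described here are 10 genes of the red cell lineage: the globin genes Hbb-bs, Hbb-bh1, Hba-a1 and Hba-a2, the heme synthesis gene Alas2, the membrane gene Slc4a1, the transcription factor genes Klf1, Gata1 and Tal1, and the receptor gene Epor. They were chosen from the peaks of these libraries, for regions seen in the naive knockout libraries, so their values in naive cells are a description and support nothing. Each gene stands for the accessible regions that overlap its body or the 20 kb on each side of it in GRCm38. They had 48 distinct regions, out of 110642 in the whole series, and 6 of the 48 lay within reach of both genes of a globin pair.

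ATAC-seq, in which the transposase Tn5 cuts and tags open chromatin, was done on CD4+ T cells of mouse spleen in 6 groups of 2 libraries. The knockout (KO) mice had the strain label C57BL/6J-Ets1-SE-KO, SE standing for a super-enhancer, and the wild-type (WT) mice were C57BL/6J; ages are not in the labels. Purity was checked by flow cytometry, per the labels' protocols. Naive KO and naive WT cells were taken after lysis of red cells with ACK buffer and negative selection on beads. Th1 KO and Th1 WT cells were naive cells cultured for 6 days on anti-CD3 with IL-12, IL-2 and anti-CD28, and Th2 KO and Th2 WT cells were cultured for 6 days with IL-4, antibody to IFN-gamma and anti-CD28. The labels give the naive libraries of each genotype as technical replicates of 1 biological sample, and the polarized libraries as biological replicates. The Th2 KO libraries have titles that say Th1 and a source name that says Th2. They are also numbered as technical replicate 2 of biological samples 1 and 2, where the other polarized libraries are technical replicate 1. By title and number they would be second technical libraries of the Th1 KO samples. They were taken as Th2, by the source name.

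Red cells form from progenitors in bone marrow and, in mice, also in the spleen. GATA1, TAL1 and KLF1 act together at the enhancers and promoters of this lineage, and erythropoietin, through its receptor, keeps its progenitors alive. The globin genes lie in clusters with far enhancers: the beta locus control region lies beyond the embryonic gene Hbb-y, and the alpha enhancers lie largely in introns of the neighbouring gene Nprl3. In T cells these globin and red cell membrane genes are normally silent.

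The lists held 41075 and 43823 peaks in naive KO libraries and 52571 and 56195 in naive WT libraries, and 34746 to 56357 in the 8 polarized libraries. The number of reads behind a list is unknown, so where no peak is listed, it can only be said that the caller reported none. To look at the deleted interval, the gap between KO peaks near Ets1 that holds the most WT peaks was sought in these same lists. It was a stretch of 30.6 kb at chr9:32897838-32928447, 140.0 kb from Ets1. The WT libraries had 32 peaks in it, 4 to 6 in each, and the KO libraries 0 by the way it was chosen. It was not set against known coordinates of the deletion, so it does not test the labels. The naive KO libraries stood apart from all others on the Y chromosome: 0 of 4 Y-linked genes had a peak in either of them, against 4 of 4 in each of the other 10 libraries. Xist, the long RNA of the silenced X chromosome, had 3 peaks in each naive KO library, 1 and 2 in the naive WT libraries, and 0 or 1 in each polarized library. Since each naive genotype came from 1 biological sample, the genotype, the animal, its sex and anything else particular to that sample cannot be told apart in naive cells. Alas2 and Gata1 lie on the X chromosome. No comparison of genotypes in naive cells can be made without these libraries, and the comparisons of KO with WT in Th1 and Th2 cells do not use them.

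The strength of a peak is given as the percentile of its deposited −log10 q-value within its own list, where 100 is the strongest peak of that list. The lists differ in length, so percentiles given side by side for different libraries are ranks within each list, and no difference in level is read from them. A region was counted as gained where both KO libraries and neither WT library had a peak, and as lost in the reverse case. In bulk libraries, more cells with an open region and a region more open in each cell cannot be told apart.

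Of the 48 regions, 29 and 32 had a peak in the naive KO libraries, against 20 and 19 in the naive WT libraries. The counts were 14 and 15 in Th1 KO libraries against 13 and 12 in Th1 WT libraries, and 17 and 14 in Th2 KO libraries against 17 and 17 in Th2 WT libraries. The naive KO libraries thus had the most regions of the 12, and no other library exceeded 20. The naive KO libraries held 60.4% and 66.7% of these 48 regions but 36.0% and 38.5% of all regions, while the naive WT libraries held 41.7% and 39.6% of the 48 and 45.9% and 48.9% of all. Over the 16 globin regions alone, the naive KO libraries had 10 and 12 and the naive WT libraries 5 and 4, while the polarized libraries had 2 to 5.

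In naive cells 13 of the 25 regions with a peak in both KO libraries were gained, which is 52.0%, beside 8.67% of the 34808 such regions in the whole genome. Of the 18 with a peak in both WT libraries 4 were lost, which is 22.2%, beside 20.9% of the 46937 such regions. The genes were chosen on this contrast, so nothing is read from these shares. Of the 13 gained regions, 11 had no peak in any polarized library either; over all regions 6.6% of those open in both naive KO libraries were of this kind. The 11 were spread over Hbb-bs, Hbb-bh1, Hba-a1, Hba-a2, Alas2 and Slc4a1, and 6 of them overlapped the body of the gene itself. Klf1, Gata1, Epor and Tal1 had 0 regions of this kind.

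**Figure D1:**
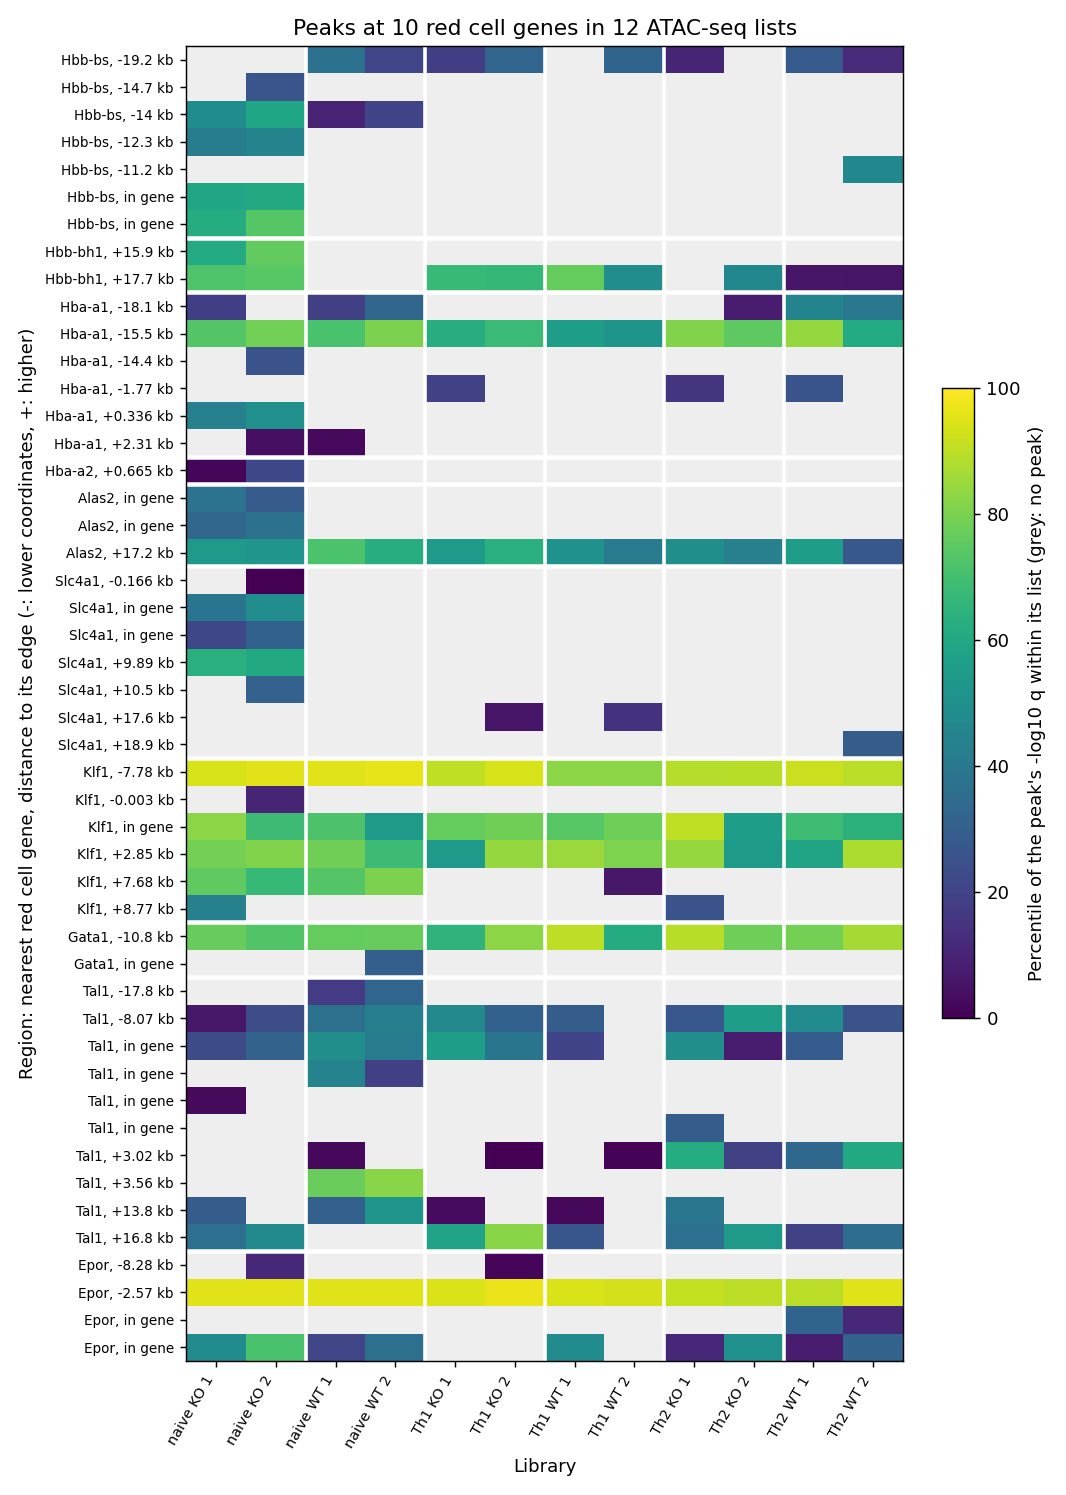
The 48 regions (down, by nearest gene, with the distance in kb to its edge) in the 12 libraries (across); colour is the percentile of the peak's −log10 q-value within its list, and grey means that no peak was called. The 11 regions filled in both naive KO columns and grey in the other 10 lie at the globin genes, Alas2 and Slc4a1, while the 7 regions filled across all 12 columns include 3 at Klf1.

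Hbb-bs, which encodes an adult beta chain of hemoglobin (chr7:103826523-103827928, minus strand), had a region over its start site at chr7:103827824-103828272. Its percentile was 61.8 and 73.6 in the naive KO libraries, with fold enrichments of 4.44 and 4.82 in the authors' lists, and no peak was called in the other 10 libraries. Another region over the far end of the gene, at chr7:103825810-103826625, had percentiles of 58.8 and 60.8 in the naive KO libraries and no peak in the other 10. Another, at the promoter of the other adult beta gene Hbb-bt (chr7:103813843-103814202), had percentiles of 42.2 and 44.8 in the naive KO libraries and again none elsewhere. The region past Hbb-bt at chr7:103812169-103812562 had a peak in both genotypes, with percentiles of 48.6 and 59.2 in naive KO libraries and 9.81 and 20.5 in naive WT libraries, and no peak in any polarized library. The lost region of this locus, chr7:103806854-103807325, 19.2 kb from Hbb-bs, had percentiles of 37.2 and 20.8 in naive WT libraries and also had a peak in 6 of the 8 polarized libraries.

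The promoters of both adult beta genes are shown because all 250 bases before each start site (250 of 250) lay within a region with a peak in the naive KO libraries alone. The bases are from the RefSeq promoter table (GRCm38.p6), on the strand of the gene: chr7:103827929-103828178 for Hbb-bs and chr7:103813924-103814173 for Hbb-bt. Capitals mark the matches, on either strand, to motifs known from red cell promoters: the GATA motif, searched as AGATAA and also as TGATAA, as well as AGATAG and lastly TGATAG; the CACCC box bound by KLF1, searched as CACACCC and likewise as CCACCC; the CCAAT box, searched as spelled; and a TATA-like box, searched as ATATAA and likewise as ATAAAA.
Hbb-bs promoter: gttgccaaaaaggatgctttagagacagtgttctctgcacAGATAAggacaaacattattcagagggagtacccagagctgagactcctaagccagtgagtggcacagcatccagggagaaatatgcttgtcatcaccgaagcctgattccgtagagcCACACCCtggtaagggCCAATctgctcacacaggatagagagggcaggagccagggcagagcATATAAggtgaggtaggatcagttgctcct
Hbb-bt promoter: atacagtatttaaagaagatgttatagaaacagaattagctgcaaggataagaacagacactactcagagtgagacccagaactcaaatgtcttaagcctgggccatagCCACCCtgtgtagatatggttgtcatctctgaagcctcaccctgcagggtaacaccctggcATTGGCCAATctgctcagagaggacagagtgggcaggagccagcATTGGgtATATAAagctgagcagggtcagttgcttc

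Positions are counted back from the start site, with -1 as the last base printed. The Hbb-bs promoter had AGATAA at -210 to -205, CACACCC at -92 to -86, CCAAT at -76 to -72 and ATATAA at -30 to -25. The Hbb-bt promoter had CCACCC at -141 to -136, CCAAT at -75 to -71, CCAAT on the opposite strand at -80 to -76 and at -36 to -32, and ATATAA at -29 to -24, and none of the searched GATA letters. Over all 32851 promoters of the table, 26.5% held a GATA match, 32.7% a CACCC match, 33.8% a CCAAT match and 22.4% a TATA-like match. A match describes the letters and is not a measured binding site.

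Hbb-bh1, an embryonic beta-like gene (chr7:103841638-103843162), had no peak over its own body in any library. Besides the 2 regions of Hbb-bs, which also lie within 20 kb of it, its gained regions were 2 on the side of Hbb-y. The region at chr7:103859088-103859485, 15.9 kb beyond Hbb-bh1 and 5.88 kb beyond Hbb-y, had percentiles of 61.0 and 76.0 in the naive KO libraries and no peak in the other 10. The next, at chr7:103860856-103861361, had percentiles of 72.5 and 74.0 in the naive KO libraries and no peak in the naive WT libraries. That region was open in polarized cells of both genotypes, with percentiles of 67.8 and 66.6 in Th1 KO libraries, 76.2 and 49.2 in Th1 WT libraries, 46.5 in 1 of the Th2 KO libraries, and 6.11 and 5.49 in Th2 WT libraries. A window of 50 kb added 2 more regions with a peak in the naive KO libraries alone. One, chr7:103865697-103866154, had percentiles of 65.4 and 76.1, and the other, chr7:103870632-103871084, had percentiles of 48.4 and 71.2. They lay 12.5 and 17.4 kb beyond Hbb-y, on the side on which the locus control region is known to lie; whether they are its elements was not tested.

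Hba-a1 (chr11:32283672-32284486) and Hba-a2 (chr11:32296492-32297310), which encode the adult alpha chains, each had a gained region just past the gene and none over the promoter. The region 0.336 kb beyond Hba-a1, chr11:32284822-32285888, had percentiles of 43.4 and 50.0 in the naive KO libraries. The region 0.665 kb beyond Hba-a2, chr11:32297975-32298856, was among the weakest, with percentiles of 1.53 and 21.5 in the naive KO libraries. Neither had a peak in the other 10 libraries. The promoter of Nprl3, at chr11:32267139-32268156, had a peak in all 12 libraries, with percentiles between 51.6 and 84.1.

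The Hba-a1 promoter (chr11:32283422-32283671, plus strand) is shown beside the Hbb-bs promoter because it holds the same 4 kinds of motif and yet no peak was called on it in any library.
Hba-a1 promoter: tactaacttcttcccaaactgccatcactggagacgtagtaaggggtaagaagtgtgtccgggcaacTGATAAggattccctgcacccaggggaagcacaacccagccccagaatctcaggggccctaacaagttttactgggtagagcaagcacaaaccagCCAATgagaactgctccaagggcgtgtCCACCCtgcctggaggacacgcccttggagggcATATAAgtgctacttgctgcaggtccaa

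It had TGATAA at -183 to -178, CCAAT at -88 to -84, CCACCC at -61 to -56 and ATATAA at -28 to -23. The Hba-a2 promoter is a near copy: 210 of the 213 stretches of 38 bases (98.6%), the length of 1 read, were found in it unchanged, and the longest identical run was 247 bases. Hbb-bs and Hbb-bt shared 0 of 213 such stretches, and their longest identical run was 14 bases. Reads from near-identical copies cannot be assigned to a single copy, how the authors' alignment treated them is not given in the sources used here, and its part in the absent peaks at both alpha promoters was not tested. A window of 50 kb added 3 gained regions inside Nprl3. Their percentiles in the naive KO libraries were 75.6 and 64.2 at chr11:32245511-32246040, 71.8 and 70.9 at chr11:32250759-32251710, and 48.8 and 70.8 at chr11:32256122-32256594. The middle one also holds weak peaks of the Th1 KO libraries, at percentiles 5.23 and 5.96, but these lie at one end of it, at chr11:32251391-32251710 and chr11:32251396-32251694. The naive KO peaks were chr11:32250862-32251378 and chr11:32250759-32251407, so the Th1 KO peaks adjoin them and were joined to the region by touching the peak of naive KO replicate 2. The other 2 had no peak outside the naive KO libraries.

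**Figure D2:**
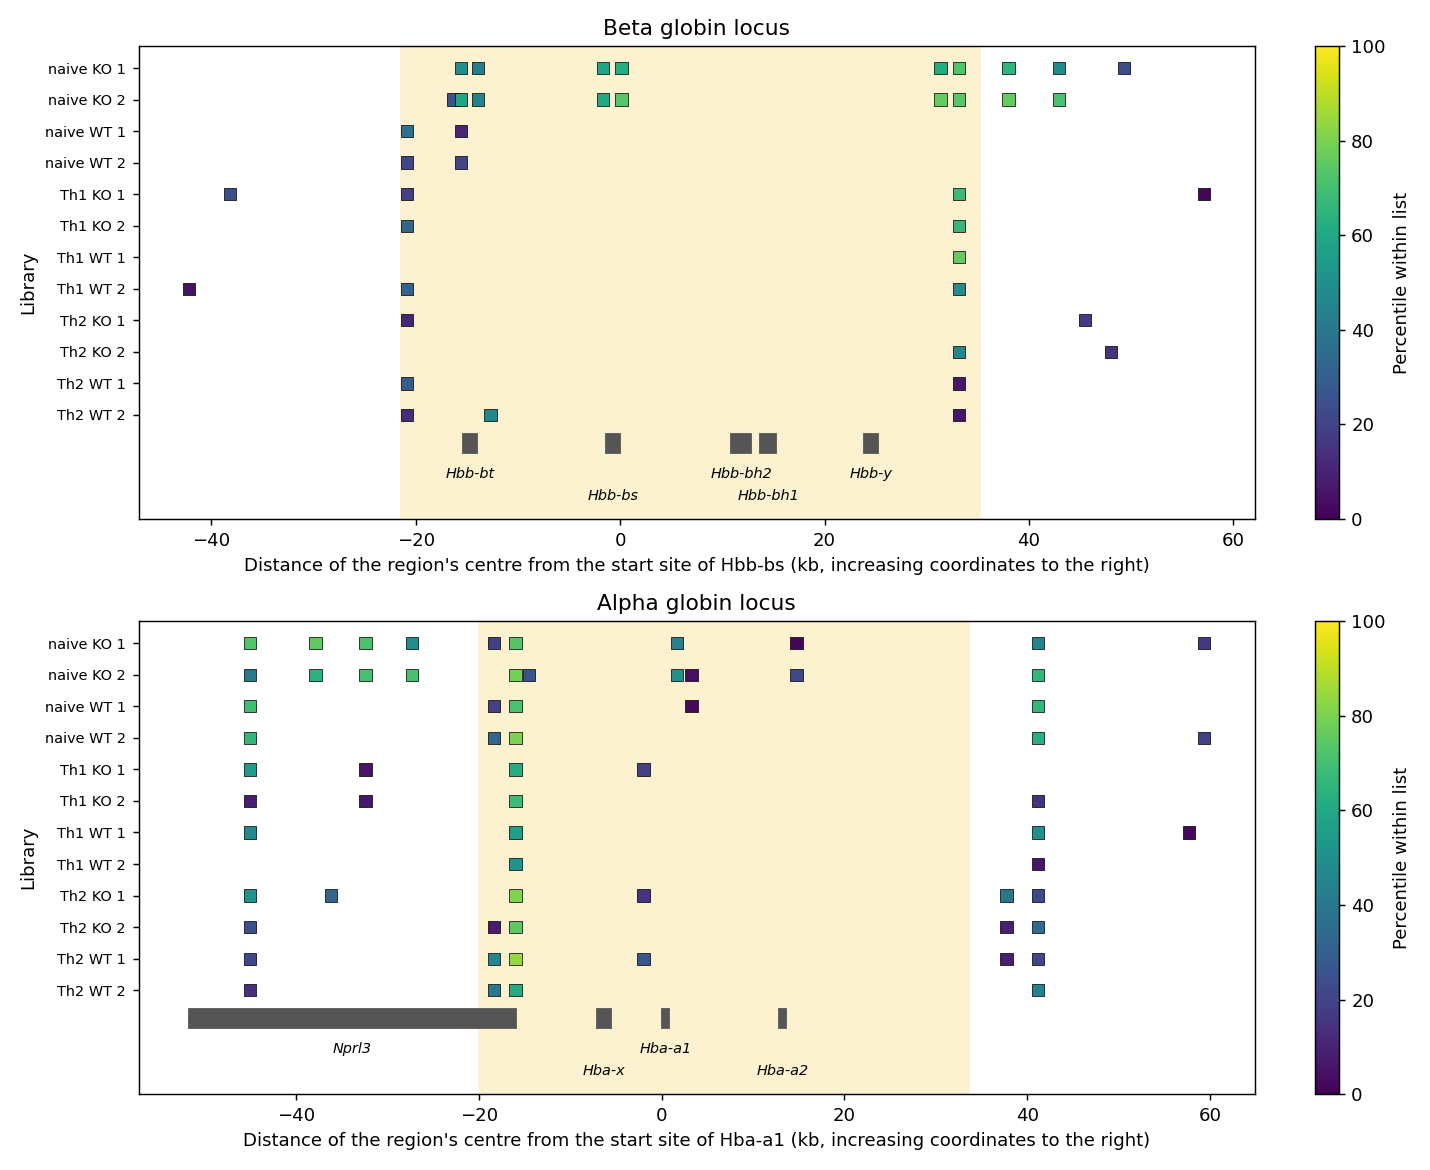
Peaks at the beta (top) and alpha (bottom) globin loci in each of the 12 libraries (down), by distance in kb of the region's centre from the start site of Hbb-bs or Hba-a1 (across); squares mark regions with a peak, colour is the percentile within the list, boxes are genes, and the shaded band is the 20 kb window. At the ends of Hbb-bs and on the far side of Hbb-y, squares line up in both naive KO rows. In 7 of the 8 polarized rows 1 region beyond Hbb-y is also filled.

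Alas2, the first and rate-limiting enzyme of heme synthesis in red cells (chrX:150547417-150570622), had 2 regions inside the gene with a peak in the naive KO libraries alone. At chrX:150549314-150550059 the percentiles were 38.1 and 28.5, and at chrX:150564589-150565074 they were 33.1 and 37.2. Both also lie in the annotated body of Apex2, which overlaps Alas2. The remaining region near Alas2, at the promoter of Pfkfb1, had a peak in all 12 libraries.

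Slc4a1 encodes band 3, the anion exchanger of the red cell membrane (chr11:102348820-102365281). It had no peak in either naive WT library and 3 gained regions. Inside the gene, chr11:102363663-102363980 had percentiles of 38.9 and 49.2 in the naive KO libraries, and across its higher edge chr11:102365055-102365566 had 21.8 and 31.2. The strongest was 9.89 kb beyond the gene, chr11:102375175-102375636, with percentiles of 63.4 and 60.9 in the naive KO libraries. None of the 3 had a peak in the other 10 libraries. The polarized libraries had 0 or 1 region with a peak near Slc4a1, all of them in other places than these 3.

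The strongest Slc4a1 region covered all 250 bases before the start of the predicted gene Gm34253 (chr11:102375219-102375468, plus strand), which are shown because they carry the only promoter of the RefSeq table under a gained region of Slc4a1. Bloodlinc, a noncoding RNA gene known from mouse red cells, overlaps the same region.
Gm34253 promoter: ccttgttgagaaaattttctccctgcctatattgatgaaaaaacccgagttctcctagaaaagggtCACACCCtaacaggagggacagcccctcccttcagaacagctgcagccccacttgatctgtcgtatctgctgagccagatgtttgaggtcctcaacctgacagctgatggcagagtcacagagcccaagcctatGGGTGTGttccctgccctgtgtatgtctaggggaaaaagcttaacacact

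It had CACACCC at -184 to -178 and on the opposite strand at -50 to -44, and none of the other motifs searched. Promoter sequences were matched for 8 of the 10 genes, and those of Hbb-bh1 and Slc4a1 were not. Over the 9 promoters of these 8 genes, 7 held a GATA match, 7 a CACCC match, 4 a CCAAT match and 6 a TATA-like match. In Alas2 and in Tal1 the TATA-like match overlapped the GATA match, so those matches are not separate. Of the 9, the promoters of Hbb-bs, Klf1 and Tal1 overlapped a region at all, by 250, 200 and 30 bases, at Tal1 through a peak of naive KO replicate 1, so the motifs were not confined to promoters with a peak.

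Klf1, the factor that binds CACCC boxes of the beta globin gene (chr8:84901982-84905291), had 0 gained and 0 lost regions in any KO and WT pair. Its region inside the gene, chr8:84902633-84903704, had a peak in all 12 libraries. The percentiles were 82.6 and 68.4 in naive KO libraries and 72.0 and 54.4 in naive WT libraries, 76.4 and 78.4 in Th1 KO libraries and 74.2 and 77.8 in Th1 WT libraries, and 90.3 and 56.1 in Th2 KO libraries and 69.0 and 64.3 in Th2 WT libraries. The promoters of its neighbours Gcdh and Dnase2a also had a peak in all 12. A region of 200 bp just before the Klf1 start site had a peak in naive KO replicate 2 alone, at percentile 10.3. The region 7.68 kb beyond the gene, in Mast1, had percentiles of 75.5 and 66.9 in naive KO libraries and 73.2 and 80.3 in naive WT libraries, and among polarized libraries 1 weak peak in a Th1 WT library, at percentile 6.63.

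Gata1, the leading transcription factor of the lineage (chrX:7959260-7976663), had no peak over its body in the naive KO libraries or in any polarized library. The single peak inside the gene, at percentile 30.2, was in naive WT replicate 2. The other region near it was the promoter of Hdac6, with a peak in all 12 libraries.

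Tal1, a partner of GATA1 that also acts in blood progenitors (chr4:115056426-115071755), had 5 and 3 regions with a peak in naive KO libraries against 7 and 6 in naive WT libraries. The strongest of its 3 lost regions lay 3.56 kb beyond the gene at chr4:115075312-115075952, with percentiles of 77.0 and 82.4 in the naive WT libraries and no peak in other libraries. The other 2, one inside the gene with percentiles of 44.7 and 18.8 and one in Stil with 17.5 and 32.5, likewise had a peak in the naive WT libraries alone. The site of the strongest was not closed elsewhere, since a separate region adjoins it at chr4:115074773-115075215. That neighbour had percentiles of 61.9 and 19.5 in Th2 KO libraries and 33.5 and 60.7 in Th2 WT libraries. It also had weak peaks in naive WT replicate 1 (2.31), Th1 KO replicate 2 (0.297) and Th1 WT replicate 2 (1.09). The region of Tal1 gained in naive cells, at the promoter of Pdzk1ip1, had percentiles of 36.6 and 47.6 in naive KO libraries and a peak in 7 of the 8 polarized libraries. The region that reaches the Tal1 start site held peaks of 10 libraries, but it joins neighbouring peaks by merging. In naive cells the peak of naive KO replicate 1 (chr4:115056396-115056787, percentile 23.2) was the one that covers the start site. Replicate 2 had a peak just inside the gene (chr4:115056481-115056923, percentile 1.39) and another further in (chr4:115057290-115057502, percentile 31.7). The naive WT peaks lay further in as well, at chr4:115057052-115057480 with percentile 49.5 and chr4:115057146-115057480 with percentile 41.4.

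Epor, the erythropoietin receptor gene (chr9:21958897-21963576), had no gained or lost region in naive cells. Its region inside the gene, chr9:21962211-21962819, had percentiles of 48.2 and 71.1 in naive KO libraries and 21.0 and 36.9 in naive WT libraries. It had no peak in the Th1 KO libraries and 1 at percentile 48.3 in Th1 WT replicate 1, and it had percentiles of 11.4 and 50.2 in Th2 KO libraries and 8.05 and 31.9 in Th2 WT libraries. The promoter of its neighbour Swsap1 had a peak in all 12 libraries, with percentiles of 89.7 to 97.1.

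**Figure D3:**
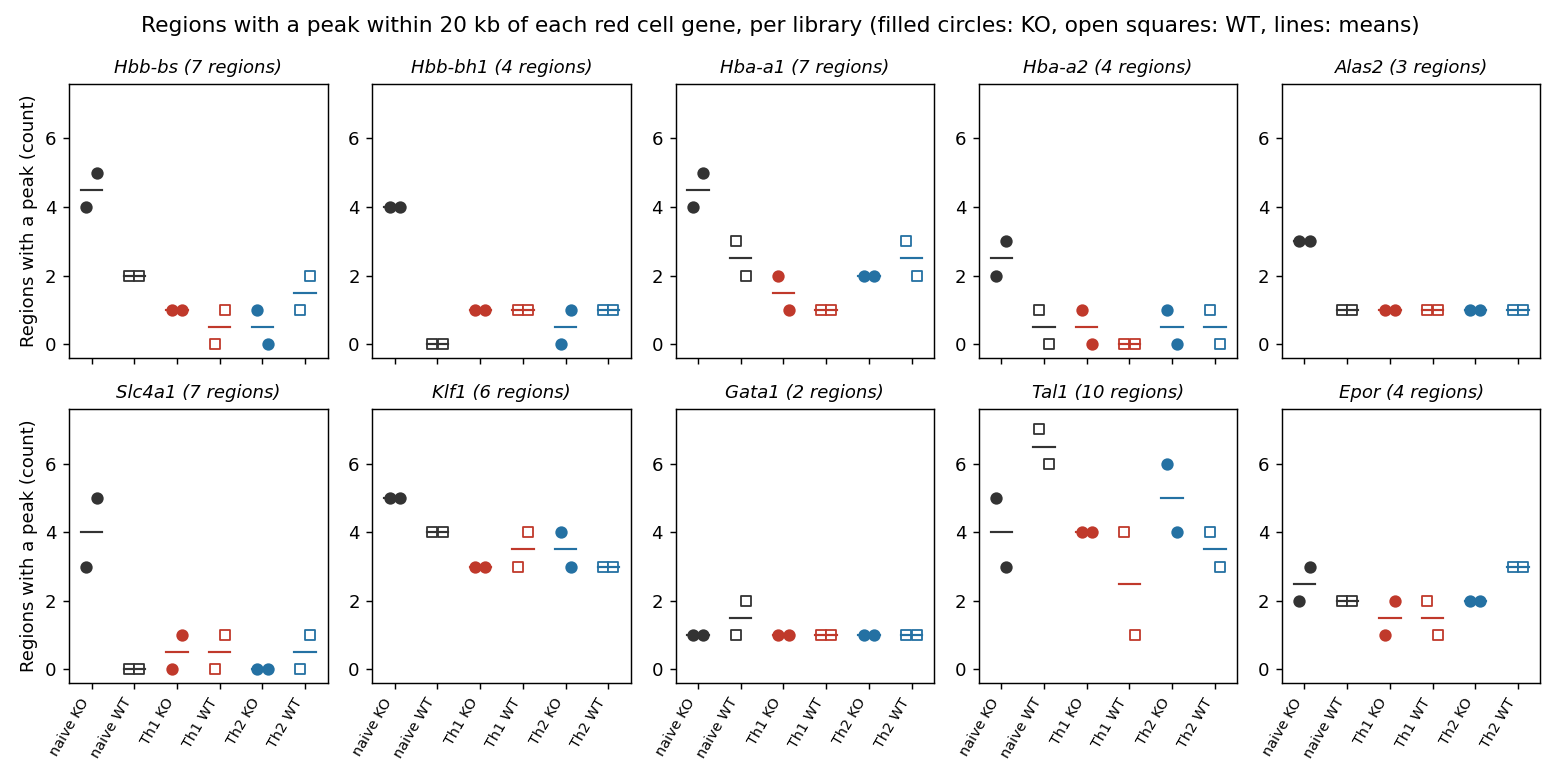
Number of regions with a peak within 20 kb of each of the 10 genes (vertical axis) in each library, by group (across); filled circles are KO libraries, open squares WT libraries and short lines the mean of the 2 libraries. In naive cells the KO libraries lie above the WT libraries for 7 genes, beside 5.56% of protein-coding genes, and below them for Tal1, beside 29.4%, and in Th1 and Th2 cells the only gene whose KO and WT libraries do not overlap is Epor in Th2 cells, lower in KO, beside 5.12%.

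By gene, the number of regions with a peak did not overlap between naive KO and naive WT libraries at 8 of the 10 genes, higher in KO at 7 and lower at Tal1. Over the 17762 protein-coding genes with at least 1 region within 20 kb, 5.56% were higher in both naive KO libraries and 29.4% were lower in both; the 10 genes were chosen on this contrast, so nothing is read from their count. In Th1 cells 0 of the 10 genes were higher in both KO libraries and 0 were lower, beside 11.2% and 2.69% of protein-coding genes. In Th2 cells 0 were higher and 1, Epor, was lower, beside 7.24% and 5.12%. Hbb-bh1 had 4 and 4 regions with a peak in naive KO libraries and 0 and 0 in naive WT libraries, and Hbb-bs had 4 and 5 against 2 and 2. Slc4a1 had 3 and 5 against 0 and 0. Klf1 had 5 and 5 against 4 and 4, through a different added region in each naive KO replicate, so none of its regions was gained. Neighbouring globin genes share regions, so the 7 genes are not separate counts. Gata1 and Epor were the genes whose naive libraries overlapped, with 1 and 1 against 1 and 2 at Gata1 and 2 and 3 against 2 and 2 at Epor.

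The gained regions were of middling strength within their lists. The 13 had a median percentile of 42.2 in naive KO replicate 1 (range 1.53 to 72.5) and 49.2 in replicate 2 (range 21.5 to 76.0), and 5 and 6 of them stood above the list median. All 3019 gained regions had medians of 31.4 and 34.2. The 12 regions near these genes with a peak in all 4 naive libraries had medians of 74.4 and 69.7 in naive KO libraries and 71.8 and 65.5 in naive WT libraries. Between the naive KO replicates, 25 of the 36 regions seen in either were seen in both (69.4%), beside 73.1% over all regions. At the edge of the window, the outermost region counted was 19.2 kb from its gene (Hbb-bs) and the nearest left out was 20.1 kb from its gene (Alas2), with a peak in 3 Th2 libraries.

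In polarized cells, which the choice of the genes did not use, 1 region near the 10 genes was called. Between Th1 KO and Th1 WT libraries, 0 of 12 regions near the 10 genes were gained, beside 8.76% of all regions open in both Th1 KO libraries, and 0 of 8 were lost, beside 3.96%. Between Th2 KO and Th2 WT libraries, 0 of 12 were gained, beside 4.56%, and 1 of 15 (6.67%) was lost, beside 3.83%. A share equal to the background would come to about 1 region of 12, so these counts do not set the 10 genes apart from other regions. Each of these denominators includes the 7 regions with a peak in all 12 libraries, which could be neither gained nor lost. Of these 7, 1 lay inside one of the 10 genes, Klf1. Over all regions 14561 had a peak in all 12 libraries. The lost region lay inside Epor, at chr9:21961595-21962032, with percentiles of 32.3 and 11.1 in the Th2 WT libraries. The next region inside Epor, chr9:21962211-21962819, lies close to it and had a peak in both Th2 KO and both Th2 WT libraries. The lower count of Epor in Th2 KO libraries, given above, comes from the lost region alone. An exact two-sided permutation test of 2 libraries against 2 has 6 possible splits, of which 2 are always as extreme as the observed one, so no such test could reach significance and none is given.

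All 11 regions with a peak in the naive KO libraries alone lacked one in the Th1 KO and Th2 KO libraries, by the way they were defined. For polarized against naive cells of 1 genotype, a region was counted as gained where both polarized libraries and neither naive library had a peak, and as lost in the reverse case. Between Th1 KO and naive KO libraries, 14 of the 25 regions open in both naive KO libraries (56.0%) were lost, beside 35.2% of all regions, and 1 of 12 (8.33%) was gained, beside 41.7%. Between Th2 KO and naive KO libraries, 13 of 25 (52.0%) were lost, beside 33.1%, and 1 of 12 (8.33%) was gained, beside 48.3%. In WT cells, 5 of 18 regions (27.8%) were lost between Th1 WT and naive WT libraries, beside 46.6%, and 1 of 8 (12.5%) was gained, beside 33.3%. Between Th2 WT and naive WT libraries, 6 of 18 (33.3%) were lost, beside 42.0%, and 3 of 15 were gained, beside 44.0%. All 4 pairs use naive libraries on which the genes were chosen, and nothing is read from these shares.

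Other red cell genes, on 4 lists of 47 genes of which 46 were found in the annotation, were examined in the same way. In naive cells 29 of the 46 had at least 1 gained region and 17 at least 1 lost region, beside 15.1% and 37.8% of the 17762 protein-coding genes with a region in reach. These shares over genes also depend on how many regions lie near each gene. Leaving out the regions of the 10 genes above, 34 of 143 regions open in both naive KO libraries were gained (23.8%), beside 8.67% over all regions, and 19 of 143 open in both naive WT libraries were lost (13.3%), beside 20.9%. In Th1 cells 5 of 99 were gained (5.05%), beside 8.76%, and 1 of 87 was lost (1.15%), beside 3.96%. In Th2 cells 9 of 115 were gained (7.83%), beside 4.56%, and 4 of 108 were lost (3.7%), beside 3.83%. The lists were made with earlier results of these libraries known.

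In naive cells the shares over all regions, 8.67% gained and 20.9% lost, stand beside each list below, and 15.1% of protein-coding genes had a gained region and 37.8% a lost one. All 6 further globin genes had a gained region, but most of these are the regions described above, since the genes share their loci: Hbb-y had 4, Hbb-bt and Hbb-bh2 had 3 each and Hba-x had 2. Of the 11 regions open in both naive KO libraries 9 were gained (81.8%), and of the 4 open in both naive WT libraries 1 was lost. Of 15 membrane and surface genes 13 had a gained region, and 4 a lost one. Of their regions 20 of 49 (40.8%) were gained and 5 of 39 (12.8%) were lost. Ank1 and Sptb, for ankyrin and beta spectrin of the membrane skeleton, had 2 gained regions each, and Sptb 1 lost one. Epb41, for protein 4.1, had 1 gained and 2 lost. Gains on the membrane and surface list were not confined to naive cells. In Th2 cells 6 of 41 of its regions were gained (14.6%), beside 4.56% over all regions, and 1 of 35 was lost (2.86%), beside 3.83%. In Th1 cells 2 of 30 were gained (6.67%), beside 8.76%, and 1 of 29 was lost (3.45%), beside 3.96%.

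Heme and iron genes had a gained region at 4 of 14 genes and a lost region at 6. Of their regions 5 of 48 were gained (10.4%), close to the share over all regions, and 8 of 57 were lost (14.0%). Uros, an enzyme of heme synthesis, had 2 gained regions, of which the one over its promoter had percentiles of 51.0 and 62.5 in the naive KO libraries. Abcb10, a transporter of the inner mitochondrial membrane, had 1, with percentiles of 66.9 and 68.5. Tfr2, transferrin receptor 2, had 1 gained and 2 lost, and Cpox, another heme enzyme, had 2 lost. Transcription factors and cofactors had a gained region at 6 of 11 genes and a lost region at 6, with 7 of 44 regions gained (15.9%) and 6 of 47 lost (12.8%). Lmo2, a bridging partner of TAL1, had 2 gained, while Bcl11a, a repressor of fetal globin genes, Lyl1, a relative of TAL1, and Zfpm1, the GATA1 cofactor FOG1, each had 1 gained and 1 lost.

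Marker genes of other cells also differed between the naive KO and naive WT libraries, and their part in the results above was not tested. Of 9 B cell markers, 8 had a gained region and 3 a lost one, with 16 of 38 regions gained (42.1%) and 4 of 26 lost (15.4%), beside 8.67% and 20.9% over all regions. The summed number of B cell marker regions with a peak was 42 and 51 in naive KO libraries against 32 and 30 in naive WT libraries. Over all regions it was 39834 and 42566 against 50805 and 54155. Cd79b, part of the B cell receptor, had 4 gained and 1 lost region. Pax5, which keeps B cells in their lineage, had 3 gained and 0 lost, Ebf1, another B cell factor, had 2 gained and 2 lost, and Cd79a, the partner of Cd79b, had 1 gained and 1 lost. In Th1 cells 1 of 28 regions of B cell markers was gained (3.57%), beside 8.76% over all regions, and in Th2 cells 1 of 26 (3.85%), beside 4.56%. Ms4a1, the CD20 gene, named after its values were seen, was the B cell marker with no peak in any library other than the naive KO ones, where it had 2 in each.

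Of the 10 T cell markers, 9 had a lost region and 1 a gained region, beside 37.8% and 15.1% of protein-coding genes. Of their regions 13 of 84 were lost (15.5%), below the 20.9% over all regions, and 1 of 58 was gained (1.72%), below 8.67%. Their summed regions with a peak were 65 and 70 in naive KO libraries and 89 and 94 in naive WT libraries. Over all regions the naive KO libraries also had fewer, 39834 and 42566 against 50805 and 54155, so nothing is read from these sums. Cd3e, Cd3d and Cd3g, neighbouring genes of the T cell receptor complex that share regions, had 3 lost regions each. Lck, a kinase of T cell receptor signalling, had 2 lost and 1 gained. All 10 T cell markers had peaks in all 12 libraries.

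Myeloid markers had a gained region at 2 of 10 genes and a lost region at 4, with 2 of 18 regions gained (11.1%) and 7 of 25 lost (28.0%). They summed to 22 and 24 regions with a peak in naive KO libraries and 28 and 30 in naive WT libraries. This sum and those below stand beside 39834 and 42566 of all regions in naive KO libraries and 50805 and 54155 in naive WT libraries. Itgam had 3 lost regions, Spi1 1 gained and 2 lost, Cd14 1 lost and Csf1r 1 gained. Lyz2 had 1 peak in naive KO replicate 1 and none in any other library. Megakaryocyte and platelet markers had a gained region at 2 of 7 genes, with 2 at Gp9 and 1 at Itga2b, which also had 1 lost; 3 of 9 regions were gained (33.3%) and 1 of 8 lost (12.5%). They summed to 9 and 12 regions in naive KO libraries and 9 and 10 in naive WT libraries. Pf4 and Ppbp, genes of platelet chemokines, had no peak in any naive library and Gp6 none in any of the 12. Progenitor markers had 1 of 6 regions gained (16.7%) and 3 of 9 lost (33.3%), and summed to 6 and 10 regions in naive KO libraries and 11 and 12 in naive WT libraries. Kit, the stem cell factor receptor, had 0 and 0 regions with a peak in naive KO libraries against 3 and 4 in naive WT libraries, 3 of them lost, and Meis1 had 1 gained.

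**Figure D4:**
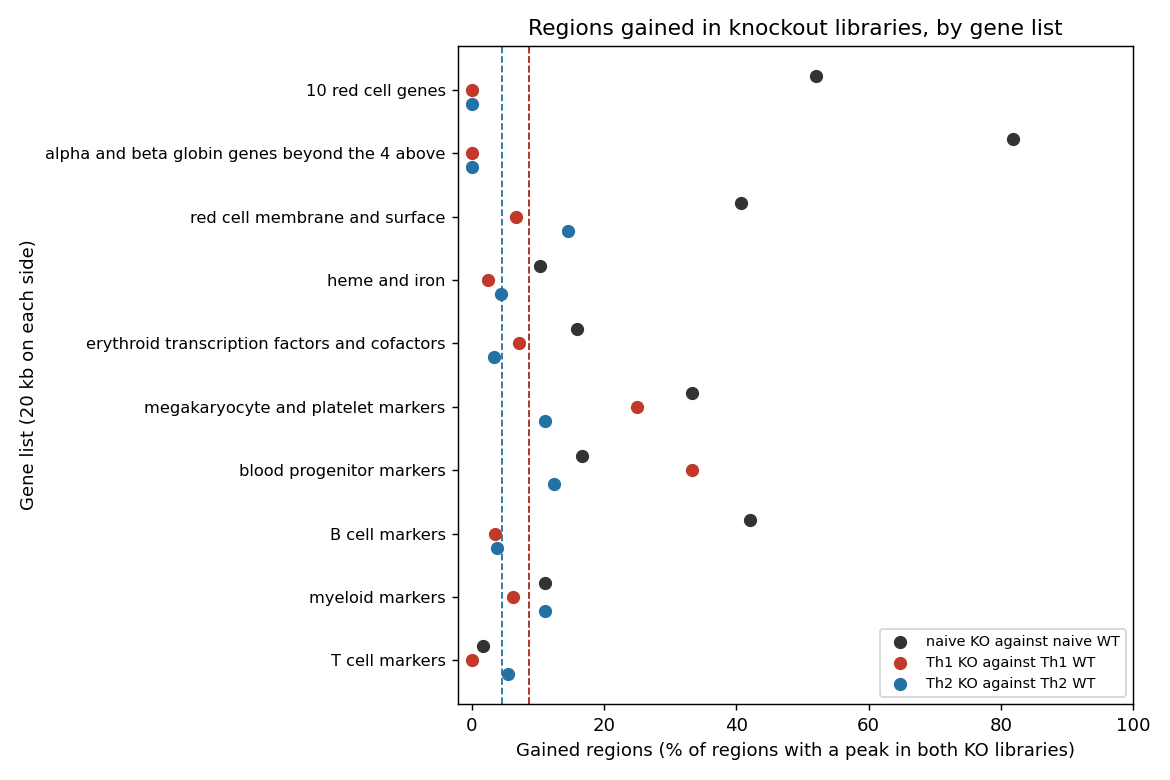
Share of gained regions (horizontal axis, % of regions with a peak in both KO libraries) for the 10 genes and 9 gene lists (down), in naive, Th1 and Th2 cells; dashed lines show the same share over all regions. In naive cells the globin, membrane and B cell lists lie at 81.8%, 40.8% and 42.1%, and the T cell list at 1.72%, beside 8.67% over all regions.

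Among protein-coding genes outside all lists, those most like the 10 were taken as the genes with most regions open in both naive KO libraries and in none of the other 10. Cbfa2t3 and Lipc had 5 such regions of 14 each, Sox6 5 of 26 and Tenm4 5 of 35. Plppr1 had 4 of 5, Dpf3 and Msantd1 4 of 7 each, Fig4 4 of 10, Tecpr2 4 of 12 and Chst3 4 of 13. In all, 76 such genes had at least 3, 19 at least 4 and 4 at least 5. Cbfa2t3 encodes a corepressor found in complexes with TAL1, and Sox6 a factor that acts on globin genes in red cells. These functions were picked out for their link to red cells, and nothing is read from them about the other genes named here. Long genes have more room for such regions, and Tenm4 spans 740.0 kb and Sox6 570.0 kb against 12.4 kb for Msantd1.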

How the data were processed

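ATAC-seq libraries of 50000 cells each were sequenced in pairs of 38 bp reads, per the labels' protocols. BWA, Picard and MACS2 with GRCm38 are named in the submitters' processing notes, and versions, settings and read depth were not given in the sources used here. Every library came as its own deposited list of peaks with 9 columns. In the deposited lists the score is the −log10 q-value multiplied by 10, as a whole number. Whether it was cut or rounded was not checked. The deposited fold enrichment (ratio) and −log10 of the p-value and q-value were the authors' own values per peak, used only to describe and rank peaks within a list.

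Peaks on chromosomes 1 to 19 and X that overlapped by at least 1 bp in any libraries were merged into 110642 regions (Python 3.11.15, pandas 2.3.3, numpy 2.4.6). Genes and promoters came from RefSeq tables of GRCm38.p6, by symbol. The calls were tested on simulated lists.

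The 10 genes and the gene lists were chosen with earlier results of these data known. Of the other lists, up to 4 genes with most gained or lost regions in naive cells were named, and of further protein-coding genes the 10 with most regions in naive KO libraries alone. A gene of the membrane list that this rule names is not reported here. Alternatives were equal list lengths, a stricter q-value, more overlap, other windows, and leaving out each library. Libraries of naive cells of 1 genotype share 1 biological sample, so their agreement is technical.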

Additional observations from a re-analysis of the deposited data

How the results depend on the processing

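Of 99 recomputed values, 58 stayed within 1.5 times of the reported one and 41 did not. The 58 include the paired counts given at the end, which could not differ from the reported ones. They also include counts made without a library, where the call asks fewer libraries to agree and so tends to give more regions. A count that did not fall when a library was left out therefore tells nothing about stability. The 13 gained regions of naive KO libraries came to 8 with a window of 5 kb, and without each naive library in turn the count was 13 to 19. The 4 lost regions came to 1 with 34746 peaks from each list, 2 with 5 kb and 8 with 50 kb, and 4 to 6 without each library. With equal lists 14 of 22 regions were gained, beside 13.0% over all regions; 12 of the 13 gained and 1 of the 4 lost were called in both ways. In Th1 cells the 0 gained regions came to 1 with equal lists, 1 where at least 50% of a region had to be covered, 1 with 50 kb, and 1 to 3 without each library (3 without Th1 WT replicate 1), and the 0 lost came to 1 with 50 kb and 0 to 1 without each library. In Th2 cells the 0 gained came to 1 with 50 kb and 0 to 3 without each library (3 without Th2 KO replicate 2), and the 1 lost came to 3 at a q-value of at most 0.01, 2 with 50 kb and 1 to 3 without each library.

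The 1 region gained in Th1 KO over naive KO libraries came to 0 with equal lists and 0 at the stricter q-value, and the 1 in Th2 KO over naive KO libraries to 0 with equal lists. With equal lists the 5 lost in Th1 WT came to 2, and the 3 gained and 6 lost in Th2 WT came to 1 and 3, each against naive WT. The median number of regions with a peak over 12 libraries was 17, and 7 with 5 kb and 36 with 50 kb. Its mean was 30.5 in naive KO libraries (15.0 and 51.0 with these windows) and 19.5 in naive WT libraries (8.5 and 38.0, and 12.5 with equal lists). With equal lists, 8 red cell genes had a lost region in place of 17, and 1 B cell marker in place of 3. Myeloid markers with a lost region were 2 in place of 4 (gained, 0 in place of 2) and T cell markers 5 in place of 9 (gained, 3 in place of 1). A smaller window holds fewer regions and equal lists drop the weakest peaks; no other cause was tested.

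The paired count, with the replicate number as a replicate block, took a region as gained where KO and not WT had a peak in each same-numbered pair, and was added after seeing the data. It gave 13 gained and 4 lost regions in naive cells, 0 and 0 in Th1 cells and 0 and 1 in Th2 cells. With 2 libraries a group these are the same regions by construction, so the block tells nothing about stability.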
